A study of Mus musculus with 63 samples.

Results

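Proximal tubular (PT) cells of the mouse kidney were compared between day 7 and day 2 of ureteric obstruction, over every miRNA locus that was counted. The comparison rests on 8 of the 63 small RNA libraries, 4 at UUO-2 and 4 at UUO-7, each from the PT cells of 1 mouse, so that 8 mice stand behind it. The mice were male C57BL/6 animals of 8 to 12 weeks. In UUO (unilateral ureteric obstruction) the ureter of 1 kidney is closed, and the kidney was taken on day 2 (UUO-2) or day 7 (UUO-7). Sham mice had the operation without obstruction, and R-UUO mice had the obstruction reversed after day 7 and were culled 2 weeks later. The 16 PT libraries, 4 in each of these 4 conditions, were sorted from digested kidney as cells without CD45 and CD31 that bind the lectin LTL. Within each condition the study sequenced the mice whose level of Havcr1, a tubular injury gene, was nearest to the group mean, so the spread between mice may be narrower than in unselected animals. ECs, macrophages (Macs) and PDGFR-β+ cells were sorted from the same kidneys.

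PT cells reabsorb most of the filtered salt, glucose, amino acids and water, and they are among the cells that ureteric obstruction injures. Closure of the ureter raises pressure in the tubules, and over days the epithelium loses transport functions, re-enters the cell cycle in part and releases signals that draw in leukocytes and activate fibroblasts. miRNAs are short RNAs that lower the stability or translation of mRNAs, chiefly by pairing of their seed, the bases 2 to 8 from the 5′ end, with sites in the target. miRNAs that share a seed are grouped as a family because they can pair with the same sites.

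Of 2110 counted loci, 330 had enough counts in PT cells to be tested, and 14 were differentially expressed miRNAs (DEmiRNAs), 9 higher and 5 lower at UUO-7. RefSeq (GRCm38.p6) held a mature sequence at the same position for 13 of the 14, and these are shown because they are the molecules that changed, with the seed in capitals. The 13 had 13 different seeds. The miRNAs higher at UUO-7 were the following, with miR-375-3p, the largest change of all, named only.
miR-146b-5p: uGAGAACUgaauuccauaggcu
miR-181d-5p: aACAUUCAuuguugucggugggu
miR-25-3p: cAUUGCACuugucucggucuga
miR-93-5p: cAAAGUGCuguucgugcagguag
miR-342-3p: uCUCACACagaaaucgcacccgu
miR-298-5p: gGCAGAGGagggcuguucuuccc
miR-181a-2-3p: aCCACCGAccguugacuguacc
let-7i-5p: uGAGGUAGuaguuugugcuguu

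The miRNAs lower at UUO-7 were the following.
miR-29c-3p: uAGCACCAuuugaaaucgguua
miR-190a-5p: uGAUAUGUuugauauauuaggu
miR-455-5p: uAUGUGCCuuuggacuacaucg
miR-3068-3p: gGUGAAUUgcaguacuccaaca
miR-335-5p: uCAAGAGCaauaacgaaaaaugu

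A further 4 relatives with a seed in common with one of these are shown as well, because none of them was called although each can pair with the same sites. miR-146a-5p shares its seed with miR-146b-5p, miR-92a-3p with miR-25-3p, let-7f-5p with let-7i-5p and miR-29a-3p with miR-29c-3p.
miR-146a-5p: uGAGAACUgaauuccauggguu
miR-92a-3p: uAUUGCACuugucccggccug
let-7f-5p: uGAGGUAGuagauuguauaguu
miR-29a-3p: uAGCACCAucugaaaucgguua

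Total counts ran from 944386 to 1675136 at UUO-2 and from 1665115 to 5093294 at UUO-7, so the later libraries were deeper, and a level of 3 counts was worth 1.59 to 2.98 CPM (counts scaled to a common library total with TMM factors) at UUO-2 and 0.755 to 1.64 CPM at UUO-7. The labelled cell type was checked with 4 markers, miR-192-5p, miR-194-5p, miR-204-5p and miR-200b-3p. Their summed level without TMM factors was 69400 to 111700 CPM in the PT libraries at UUO-2 and 34070 to 73050 at UUO-7, against at most 6344 CPM in any library of the other cell types at these times. Most of this sum was miR-192-5p, so the check rests mainly on that miRNA. On the scale of all 63 libraries miR-204-5p averaged 720 CPM in PT cells and 1664 CPM in ECs at UUO-2. At UUO-7 it averaged 1268 CPM in PT cells and 825 CPM in ECs, so it does not mark PT cells alone. A pair of PT libraries stood apart from the rest. R-UUO replicate 1, which is in neither group compared but enters the filter, the scaling, the estimate of the spread and the R-UUO values given later, had a TMM scaling factor of 0.427 and 86.4% of its counts in 10 loci. UUO-7 replicate 4 was the deepest library and had a TMM factor of 0.781.

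The 9 DEmiRNAs higher at UUO-7 were 2.73% and the 5 lower were 1.52% of the loci tested, 4.24% together, at an FDR under 0.05 and a fold change over 1.5 in edgeR's quasi-likelihood test. The median log2 fold change over all loci was -0.02, with 162 loci above 0 and 168 below. Without R-UUO replicate 1 in the fit, 26 loci were higher and 20 lower, the 14 DEmiRNAs among them. Without UUO-7 replicate 4, 8 were higher and 4 lower, and 11 of the 14 were still called. Scaled by library size alone, 6 were higher and 2 lower and the median of all loci moved to -0.17, and 6 of the 14 were kept, namely miR-375-3p, miR-146b-5p, miR-181d-5p, miR-298-5p, miR-190a-5p and miR-335-5p. Other single libraries moved the counts as well: without UUO-2 replicate 4, 3 were higher and 5 lower, without UUO-2 replicate 3, 5 and 6, and without UUO-7 replicate 5, 6 and 3. The libraries of the 2 time points did not overlap in CPM at 78 loci, 23.6% of those tested, and the 14 DEmiRNAs were all among these.

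**Figure D1:**
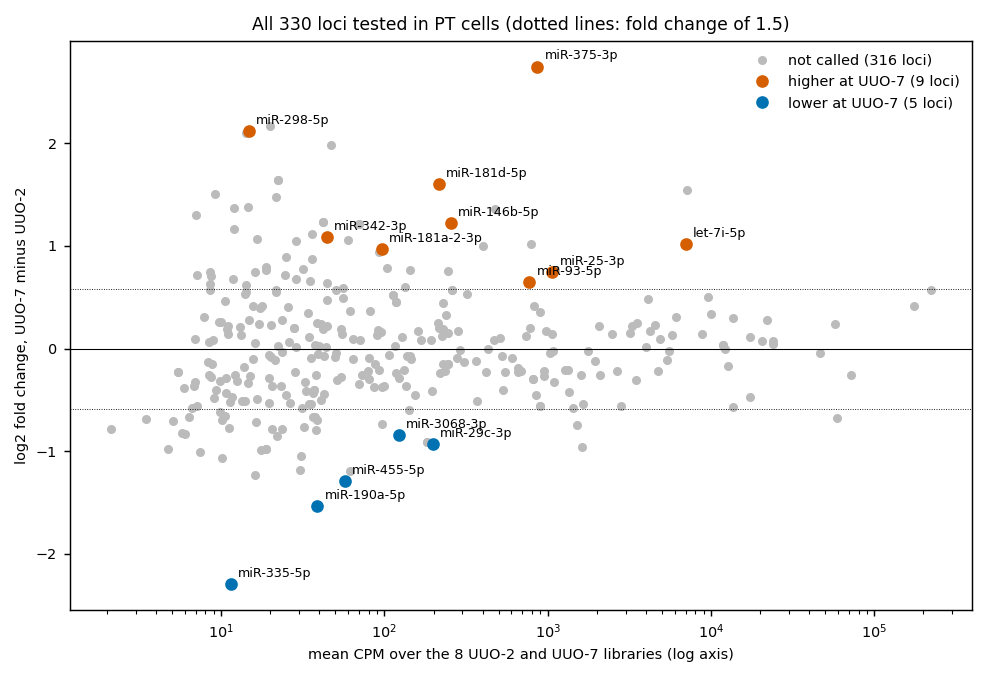
Log2 fold change (UUO-7 minus UUO-2) of the 330 loci tested in PT cells against their mean CPM over the 8 libraries on a log axis, with the 9 loci called higher in orange and the 5 called lower in blue. miR-375-3p lies highest at 2.75 and miR-335-5p lowest at -2.29, and most abundant loci lie near 0.

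miR-375-3p, best known from pancreatic islets where it limits insulin secretion, rose most. Its level was 198, 181, 282 and 237 CPM in UUO-2 replicates 1 to 4 and 1530, 1088, 1861 and 1548 CPM in UUO-7 replicates 2 to 5. Every UUO-7 library was thus several-fold above every UUO-2 library. The mean went from 224 ± 44.8 CPM to 1507 ± 318 CPM (SD, n = 4), a log2 fold change of 2.75 ± 0.23 (SE, adjusted p = 5.12e-07). The locus, chr1:74900661-74900682 (GRCm38), lies in no annotated gene other than its hairpin. It was called under all 18 alternatives, with log2 fold changes from 2.55 to 2.89.

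Of the miRNAs tied to inflammation, miR-146b-5p rose. It dampens NF-κB signalling downstream of Toll-like receptors and lies in an intron of Mfsd13a (chr19:46342790-46342811). Its level was 161, 144, 139 and 168 CPM at UUO-2 and 394, 302, 390 and 343 CPM at UUO-7, with no overlap. The log2 fold change was 1.22 ± 0.18 (adjusted p = 0.000583), and the call held under all 18 alternatives. miR-146a-5p, with the same seed, had a log2 value of 0.76 ± 0.24 (adjusted p = 0.0794) and its libraries overlapped, at 160 to 225 CPM and 208 to 439 CPM. It passed by DESeq2, without R-UUO replicate 1 and without UUO-7 replicate 4, but under none of the other alternatives. The other members of this group that could be tested, miR-155-5p and miR-132-3p, had log2 values of 0.57 ± 0.32 and 0.24 ± 0.27 and were not called. miR-146b-5p was far more abundant in Macs and in PDGFR-β+ cells of the same kidneys than in PT cells. On the scale of all 63 libraries it averaged 2189 and 6133 CPM in Macs at the 2 times. In PDGFR-β+ cells it averaged 1227 and 6684 CPM, against 134 and 325 CPM in PT cells. The 7 Mac and leukocyte markers gave a summed level of 197 to 406 CPM in the PT libraries at UUO-2 and 193 to 351 CPM at UUO-7. Most of each sum was miR-142a-5p and miR-150-5p. On the scale of all 63 libraries miR-150-5p averaged 2395 and 2358 CPM in ECs against 308 and 595 CPM in Macs at the 2 times. In the PT libraries miR-150-5p was at 36.1 to 131 CPM and then at 40.5 to 83.2 CPM, and miR-223-3p at 4.77 to 9.99 CPM and then at 6.29 to 13.1 CPM. miR-511-5p and miR-511-3p had no count in any UUO-2 library and reached at most 0.491 and 0.547 CPM at UUO-7. The marker ranges overlapped, none of the 3 markers tested was called, and their part in the result was not tested.

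The miR-181 family had DEmiRNAs on different chromosomes. miR-181 miRNAs are known for tuning the strength of T cell receptor signalling. miR-181d-5p, in an intron of Nanos3 (chr8:84178759-84178781), rose from 85.8, 131, 110 and 98.4 CPM at UUO-2 to 281, 252, 385 and 376 CPM at UUO-7. The log2 fold change was 1.60 ± 0.30 (adjusted p = 0.00784), without overlap and called under all 18 alternatives. Its neighbour in the same intron, miR-181c, was not called on either arm: miR-181c-3p, 104 bases away, had a log2 value of 2.17 ± 0.62 (adjusted p = 0.0567) and miR-181c-5p, 143 bases away, one of 1.00 ± 0.39 (adjusted p = 0.147). The libraries of both arms nevertheless did not overlap, and miR-181c-3p ran from 4.97 to 9.86 CPM at UUO-2 and from 13.7 to 61.9 CPM at UUO-7. miR-181c-3p passed with the 8 libraries of the 2 times alone, without R-UUO replicate 1, by the likelihood ratio test and by DESeq2. It also passed by library size alone, without the low-count filter, with the replicate number as a block and with summed loci of 1 mature name. Of the 8 fits that left out 1 library of the 2 times, it passed only without UUO-7 replicate 3.

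miR-181a-2-3p comes from the other strand of the hairpin that yields miR-181a-5p, within Nr6a1 but on the opposite strand to that gene (chr2:38852785-38852806). It was at 65.1, 53.6, 79.5 and 62.6 CPM at UUO-2 and at 111, 111, 141 and 150 CPM at UUO-7. The log2 fold change was 0.97 ± 0.22 (adjusted p = 0.0154). Its partner arm miR-181a-5p, much more abundant and with a mature sequence that another hairpin encodes as well, was at 12230 ± 756 CPM and 12170 ± 342 CPM, a log2 value of -0.01 ± 0.13. The call on miR-181a-2-3p was lost without UUO-2 replicates 1 or 4 or UUO-7 replicate 5, with log2 values of 0.79 to 1.27 over the 18 alternatives.

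miR-25-3p and miR-93-5p rose together. They belong to the miR-106b to miR-25 cluster within Mcm7, a paralog of the miR-17 to miR-92a cluster, and these clusters are known to repress inhibitors of the cell cycle such as Cdkn1a. miR-25-3p (chr5:138165332-138165353) was at 744, 728, 989 and 730 CPM at UUO-2 and at 1163, 1269, 1583 and 1346 CPM at UUO-7, a log2 fold change of 0.75 ± 0.15 (adjusted p = 0.00921). miR-93-5p (chr5:138165574-138165596), 221 bases away, was at 546, 578, 676 and 604 CPM and then at 867, 795, 1167 and 929 CPM, a log2 fold change of 0.64 ± 0.17 (adjusted p = 0.0359). Neither overlapped between the times, but these changes were the smallest among the 9. The remaining mature miRNA of the cluster, miR-106b, had log2 values of 0.64 ± 0.20 for the 3p arm (adjusted p = 0.0737, no overlap) and 0.55 ± 0.36 for the 5p arm (adjusted p = 0.383). miR-25-3p lost its call without UUO-2 replicate 4, and miR-93-5p kept its call only without UUO-7 replicate 3 among the 8 fits that left out 1 library. Over the 18 alternatives miR-25-3p ranged from 0.57 to 0.84 and miR-93-5p from 0.46 to 0.73 on the log2 scale.

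Over the whole group of miR-17 to miR-92a and its paralogs, 15 loci were tested. Of these, 14 had a log2 value above 0, against 162 of the 330 loci in all, and 2 were called higher, against 2.73% of all loci, with a median of 0.55 against -0.02. By library size alone 12 of 15 were above 0, with a median of 0.35, and none was called. The most abundant member, miR-92a-3p from chr14, was at 7209 to 8650 CPM at UUO-2 and at 10120 to 12630 CPM at UUO-7, without overlap (log2 0.50 ± 0.14, adjusted p = 0.0567). Of the members of the miR-17 to miR-92a cluster itself, miR-17-5p had a log2 value of 0.18 ± 0.22 and miR-20a-5p one of 0.14 ± 0.25. The summed level of the group was 9425 to 11030 CPM at UUO-2 and 13750 to 15730 CPM at UUO-7.

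The let-7 family restrains growth through targets such as Lin28 and Hmga2, and one of its members was called. let-7i-5p (chr10:122985698-122985719, in an exon of the pseudogene transcript D630033A02Rik) was at 4377, 5094, 4990 and 4011 CPM at UUO-2 and at 8503, 6899, 12750 and 9246 CPM at UUO-7. The log2 fold change was 1.02 ± 0.26 (adjusted p = 0.026), without overlap. Of the 12 let-7 and miR-98 5p loci tested, let-7i-5p included, 11 were above 0, with a median of 0.22, and the most abundant, let-7f-5p, was at 52390 ± 4970 CPM and 61930 ± 5053 CPM (log2 0.24 ± 0.13, adjusted p = 0.314). By library size alone 9 of 12 were above 0 and let-7i-5p was not called. Its call was also lost without UUO-2 replicates 1, 3 or 4 or UUO-7 replicates 2, 4 or 5, with log2 values between 0.82 and 1.15 over the 18 alternatives.

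The last 2 miRNAs called higher were scarce. miR-342-3p, from an intron of Evl (chr12:108658680-108658702), is abundant in leukocytes. It was at 33.5, 30.0, 21.2 and 29.8 CPM at UUO-2 and at 63.9, 68.4, 51.3 and 58.8 CPM at UUO-7, a log2 fold change of 1.09 ± 0.24 (adjusted p = 0.0145). Its other arm, miR-342-5p, was at 5.45 to 14.9 CPM and then at 19.6 to 22.9 CPM, also without overlap (log2 1.38 ± 0.43, adjusted p = 0.07). In Macs the level of miR-342-3p was 859 and 1543 CPM at the 2 times, on the scale of all libraries, and the summed Mac and leukocyte markers of the PT libraries, given above for miR-146b-5p, overlapped between the times. Their part in the result was not tested. The call on miR-342-3p was lost without UUO-2 replicates 3 or 4, with log2 values of 0.94 to 1.19 over the alternatives.

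miR-298-5p lies beside miR-296 on chr2 (174267553 to 174267575), in no annotated gene other than its hairpin. It had 8, 4, 9 and 6 counts at UUO-2 and 54, 33, 114 and 48 counts at UUO-7, which is 3.63 to 7.89 CPM and 18.1 to 28.7 CPM. The log2 fold change was 2.12 ± 0.49 (adjusted p = 0.0154). The counts at UUO-2 were only just above the level of 3 counts, and the call was lost without UUO-2 replicates 3 or 4 and when all libraries were thinned to the smallest total, with log2 values of 1.63 to 2.37. On the scale of all 63 libraries miR-298-5p averaged 53.2 and 355.8 CPM in PDGFR-β+ cells at the 2 times. In Macs it averaged 34.1 and 19.4 CPM, against 4.87 and 21.9 CPM in PT cells. The part of these other cells in the result was not tested.

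**Figure D2:**
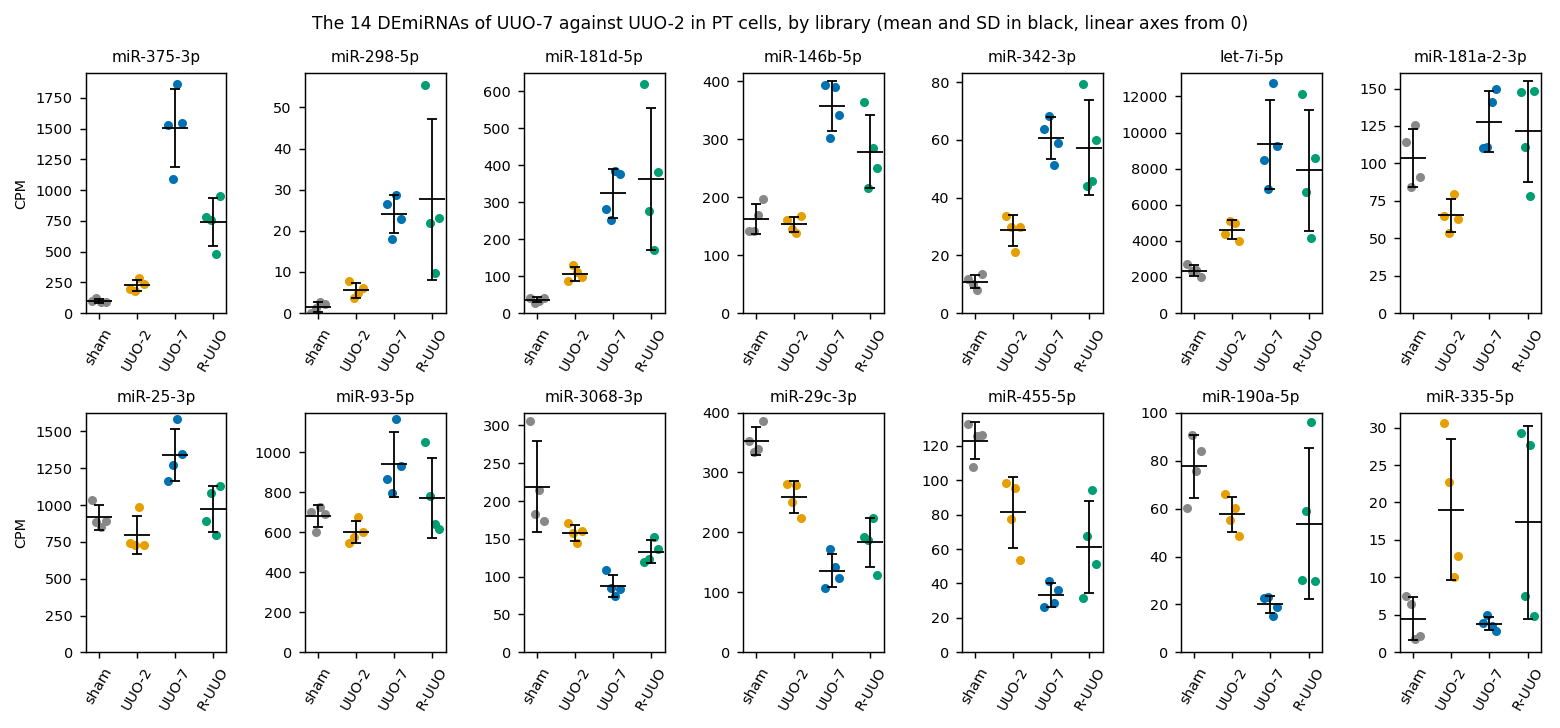
CPM of the 14 DEmiRNAs in each of the 16 PT libraries by condition, with the mean and SD in black and each axis linear from 0, ordered by log2 fold change from miR-375-3p to miR-335-5p. In every panel the 4 UUO-7 points lie wholly above or wholly below the 4 UUO-2 points. The UUO-2 mean lies between sham and UUO-7 for miR-375-3p, miR-298-5p, miR-181d-5p, miR-342-3p and let-7i-5p. The same holds for 4 of the 5 lower at UUO-7, all but miR-335-5p.

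Among the 5 miRNAs lower at UUO-7, miR-29c-3p was the most abundant. miR-29 miRNAs repress collagens and other matrix genes and are known for their loss in fibrosis. miR-29c-3p (chr1:195037600-195037621, in an exon of the noncoding transcript A330023F24Rik, and overlapping Cd46 on the opposite strand) was at 281, 252, 279 and 225 CPM at UUO-2. At UUO-7 it was at 107, 172, 142 and 123 CPM, all below the lowest UUO-2 library. The log2 fold change was -0.93 ± 0.18 (adjusted p = 0.00884). It was called in each of the 8 fits that left out 1 library and in 17 of the 18 alternatives, the exception being library size alone, where the adjusted p was 0.0514 in a range from 2.64e-06.

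The rest of the miR-29 family had values in the same direction without a call. All 4 loci tested were below 0, with a median of -0.75 against -0.02 over all loci. miR-29b-3p, at the locus 487 bases from miR-29c-3p, had a log2 value of -0.78 ± 0.34 (adjusted p = 0.195, no overlap), and at its other locus one of -0.72 ± 0.36, and since its mature sequence is the same at both loci the reads cannot be told apart. miR-29a-3p was the most abundant, at 1218 ± 121 CPM and 971 ± 265 CPM (log2 -0.33 ± 0.21, adjusted p = 0.367). The summed level of the family overlapped, at 1374 to 1705 CPM and 917 to 1541 CPM.

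miR-190a-5p and miR-455-5p fell further. miR-190a-5p, from an intron of Tln2 (chr9:67236700-67236721), was at 66.0, 55.4, 60.5 and 48.7 CPM at UUO-2 and at 22.6, 23.0, 15.4 and 19.1 CPM at UUO-7, a log2 fold change of -1.53 ± 0.32 (adjusted p = 0.0122). It was called in 17 of 18 alternatives and not when the libraries were thinned, where 294 loci could be tested, its log2 value was -0.72 and the adjusted p was 0.256. Over the other alternatives it ranged from -1.68 to -1.41. miR-455-5p, from an intron of the collagen gene Col27a1 and known from cartilage (chr4:63256867-63256888), was at 98.6, 77.2, 95.4 and 53.7 CPM and then at 26.5, 41.6, 28.7 and 36.3 CPM, a log2 fold change of -1.29 ± 0.29 (adjusted p = 0.0145), which was lost by library size alone. Its other arm, miR-455-3p, had a log2 value of -1.19 ± 0.48 (adjusted p = 0.158), from 85.8 ± 28.5 CPM to 37.8 ± 12.7 CPM, and overlapped.

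miR-3068-3p (chr12:87437685-87437706, in an intron of Alkbh1) was at 171, 157, 144 and 160 CPM at UUO-2 and at 109, 84.8, 74.5 and 84.1 CPM at UUO-7. The groups were tight and did not overlap, and the log2 fold change was -0.84 ± 0.19 (adjusted p = 0.0145). The call was lost without UUO-7 replicate 5, with log2 values of -1.05 to -0.77 over the alternatives.

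miR-335-5p, from an intron of the imprinted gene Mest (chr6:30741314-30741336), had the largest decrease and the lowest level. It had 31, 25, 19 and 13 counts at UUO-2 and 8, 9, 14 and 6 counts at UUO-7, from libraries of greater depth. In CPM it was at 30.6, 22.7, 10.1 and 12.9 and then at 3.93, 4.92, 3.52 and 2.87, a log2 fold change of -2.29 ± 0.57 (adjusted p = 0.0259). The UUO-2 libraries themselves spread from 10.1 to 30.6 CPM. miR-335-5p was much higher in ECs, at 774 and 454 CPM at the 2 times on the scale of all libraries, and the EC markers miR-126a-5p and miR-126a-3p moved the same way in the PT libraries. Their summed level was 2310, 993, 959 and 959 CPM at UUO-2 and 822, 1037, 825 and 716 CPM at UUO-7, highest in the library with the highest miR-335-5p, and their part in the result was not tested. The call was lost without UUO-2 replicates 1 or 2 or UUO-7 replicates 2, 4 or 5, with log2 values of -3.09 to -1.71 over the alternatives.

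**Figure D3:**
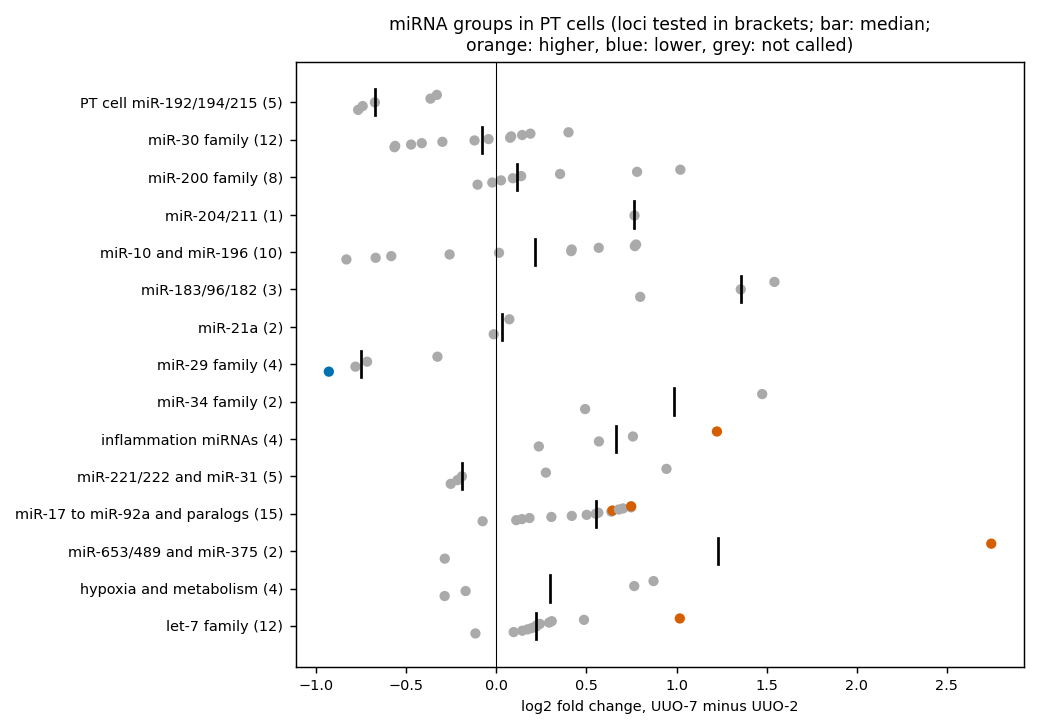
Log2 fold change (UUO-7 minus UUO-2) of each tested locus in 15 miRNA groups, 1 point per locus with the number tested in brackets and a bar at the median, orange for called higher, blue for called lower and grey for not called. The miR-29 group and the group of miR-192 and miR-194 lie wholly below 0. The groups of miR-182, of miR-34 and of inflammation miRNAs lie wholly above, as does the 1 locus tested for miR-204 and miR-211.

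The miRNAs most closely tied to the tubule itself had values of either sign, and none of them was called in the fit over 16 libraries. miR-192-5p and miR-194-5p are transcribed together, and miR-192-5p was among the most abundant miRNAs of these PT cells. miR-192-5p was at 76190, 62600, 91040 and 60060 CPM at UUO-2 and at 42560, 58810, 35260 and 45120 CPM at UUO-7, without overlap, for a log2 value of -0.67 ± 0.31 (adjusted p = 0.215). miR-194-5p at the same place on chr19 was at 1594 to 2105 CPM and then at 911 to 1455 CPM, also without overlap (log2 -0.74 ± 0.26, adjusted p = 0.114). With the 8 libraries of the 2 times alone both were called lower (adjusted p = 0.0261 and 0.0108), as they were without R-UUO replicate 1 (adjusted p = 0.0169 and 0.00697). All 5 tested loci of this group were below 0, with a median of -0.67. Since each library pools the sorted PT cells of 1 mouse, a smaller share of these cells with a miRNA and less of it per cell cannot be told apart.

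miR-204-5p, from an intron of Trpm3 and known from epithelia, had the opposite sign: 646, 1015, 830 and 791 CPM at UUO-2 and 1488, 1061, 1749 and 1277 CPM at UUO-7. The libraries did not overlap, though the highest UUO-2 and the lowest UUO-7 library lay close together, and the test did not pass (log2 0.76 ± 0.23, adjusted p = 0.0577). It passed with the 8 libraries alone (adjusted p = 0.0139), without R-UUO replicate 1 (0.0402), by the likelihood ratio test (0.036) and by DESeq2 (0.0276). The miR-200 family, which holds cells in the epithelial state by repressing Zeb1 and Zeb2, had 8 loci tested and none called. Its most abundant member, miR-200b-3p, was at 5553 ± 445 CPM and 5468 ± 404 CPM (log2 -0.02 ± 0.11), while miR-141-3p and miR-200c-3p had log2 values of 1.02 ± 0.48 and 0.78 ± 0.38 without overlap. The median of the family was 0.11, and -0.04 by library size alone. Of the 12 miR-30 loci, 5 were above 0 and 7 below, and by library size alone 1 was above 0. The lowest were the 2 loci of miR-30c-5p at -0.57 ± 0.18 and -0.56 ± 0.18 (adjusted p = 0.0774 and 0.0818).

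The cluster of miR-183, miR-96 and miR-182, best known from sensory cells, had the largest median of the 15 groups, 1.36 over 3 loci, and no call. miR-182-5p was at 2872, 4049, 3457 and 4269 CPM at UUO-2 and at 10180, 6132, 16080 and 10300 CPM at UUO-7. The groups did not overlap, but the UUO-7 libraries spread widely, and the log2 value of 1.54 ± 0.44 had an adjusted p of 0.0567. miR-183-5p was at 230 to 297 CPM and then at 410 to 935 CPM, again without overlap (log2 1.36 ± 0.44, adjusted p = 0.0798). Both passed with the 8 libraries of the 2 times alone in the fit, without R-UUO replicate 1, by the likelihood ratio test and by DESeq2. By library size alone miR-182-5p passed and miR-183-5p did not, and without UUO-7 replicate 4 neither passed.

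Several miRNAs widely studied in kidney injury were not called. miR-21a-5p was at 23440 ± 1902 CPM at UUO-2 and 24650 ± 7717 CPM at UUO-7 (log2 0.07 ± 0.35), and its 3p arm had a log2 value of -0.01 ± 0.29. UUO-7 replicate 4, at 36100 CPM, was the one library outside 19280 to 24990 CPM for miR-21a-5p. miR-34a-5p, a target of p53, was at 39.4 to 50.4 CPM and then at 53.1 to 74.0 CPM (log2 0.49 ± 0.20, adjusted p = 0.158, no overlap), and miR-34c-5p had a log2 value of 1.48 ± 0.44 with overlap (adjusted p = 0.0637). miR-34c-5p passed with the 8 libraries of the 2 times alone, without R-UUO replicate 1, by the likelihood ratio test and by DESeq2, but not by library size alone. miR-210-3p, induced by hypoxia, was at 8.87 to 36.3 CPM and 26.0 to 68.2 CPM (log2 0.87 ± 0.45, adjusted p = 0.271). miR-221-3p and miR-222-3p, with a seed in common, had log2 values of -0.19 ± 0.13 and -0.22 ± 0.15. miR-653-5p, from an intron of Calcr, had one of -0.29 ± 0.39. miR-196b-5p of the Hox clusters passed the FDR (adjusted p = 0.0278) but had a log2 value of -0.58, a fold change of 1.498 against the threshold of 1.5, and so was not a DEmiRNA.

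The 10 most abundant loci took 70.5% ± 1.87 (SD, n = 4) of all counts at UUO-2 and 72.5% ± 2.83 at UUO-7, a difference of 1.95 percentage points (exact permutation test, 2-sided, p = 0.314). With 4 against 4 libraries the smallest p this test can give is 0.0286. miR-10a-5p and miR-10b-5p, transcribed from the Hox clusters, led both times: miR-10a-5p took 17.7, 21.1, 14.7 and 22.1% of counts at UUO-2 and 26.1, 20.9, 26.5 and 25.1% at UUO-7. These shares overlapped (exact permutation p = 0.0857). The share of miR-192-5p was 7.72% ± 1.93 and 4.39% ± 1.55, that of miR-22-3p 8.33% ± 0.90 and 6.16% ± 0.70, that of miR-30a-5p 4.97% ± 0.19 and 4.25% ± 0.16, and that of miR-30e-5p 2.13% ± 0.12 and 1.36% ± 0.08. The last 3 did not overlap and reached the smallest exact permutation p of 0.0286, or 0.114 adjusted over the 12 loci compared. In CPM with TMM factors miR-22-3p had a log2 value of -0.26 ± 0.17 and miR-30a-5p one of -0.04 ± 0.17, both with overlap.

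**Figure D4:**
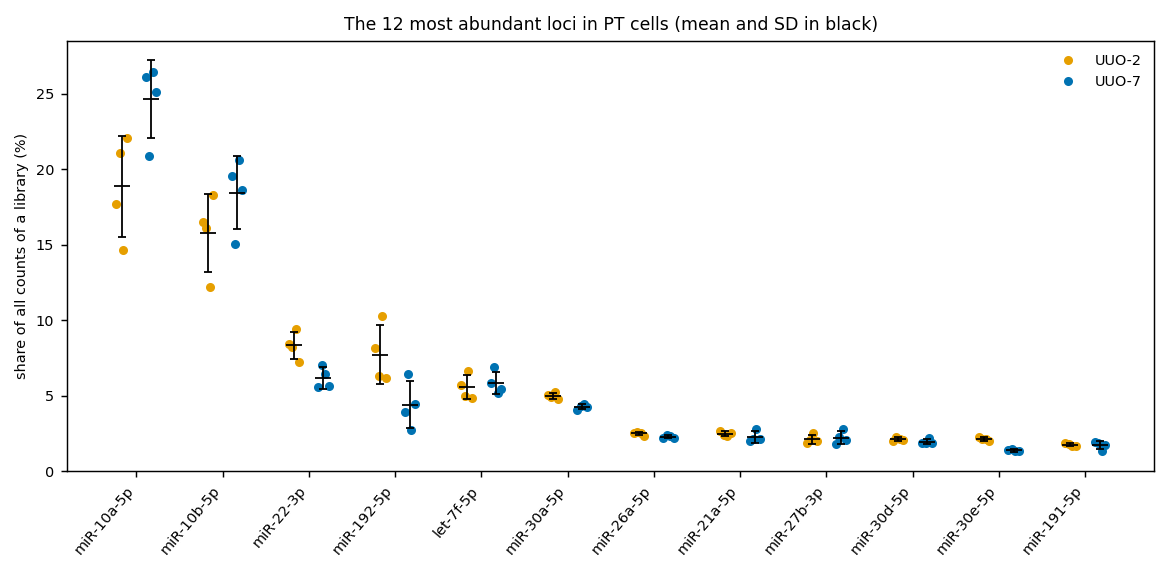
Share of all counts (%) taken by each of the 12 most abundant loci in the 4 UUO-2 and the 4 UUO-7 libraries of PT cells, with the mean and SD in black and the axis from 0. miR-10a-5p leads at 18.9% and 24.7%, and miR-22-3p, miR-30a-5p and miR-30e-5p are lower in every UUO-7 library than in any UUO-2 library.

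The levels of the 14 DEmiRNAs at the other conditions are set beside these changes. They share libraries with the comparison above and so are no independent check of it. Of the 9 higher at UUO-7, the UUO-2 mean lay between sham and UUO-7 for 5, namely miR-375-3p, miR-181d-5p, miR-342-3p, miR-298-5p and let-7i-5p. The miR-375-3p level was 98.5 ± 16.7 CPM in the sham libraries and 779, 757, 479 and 948 CPM in R-UUO replicates 1, 2, 4 and 5, beside the 224 and 1507 CPM given above. miR-181d-5p was at 35.5 ± 6.71 CPM in sham and 362 ± 192 in R-UUO, and miR-342-3p at 10.9 ± 2.28 and 57.3 ± 16.5 CPM. The R-UUO means of miR-181d-5p and miR-342-3p differed from those at UUO-7 by less than the SD of the R-UUO libraries. miR-298-5p had 0 to 3 counts in the sham libraries.

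The other 4, miR-146b-5p, miR-25-3p, miR-93-5p and miR-181a-2-3p, had a UUO-2 mean below that of sham. miR-146b-5p was at 163 ± 26.3 CPM in sham and 153 ± 13.6 at UUO-2, with a log2 value of -0.09 and an adjusted p of 0.748. miR-181a-2-3p was lower at UUO-2 than in sham (103.7 ± 19.4 CPM against 65.2 ± 10.8, log2 -0.67, adjusted p = 0.0451), and its UUO-7 level of 128 ± 20.2 CPM had a log2 value of 0.30 against sham (adjusted p = 0.273).

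Of the 5 lower at UUO-7, 4 had a UUO-2 mean between those of sham and UUO-7. For miR-29c-3p the means in time order were 353 ± 23.7 CPM (sham), 259 ± 26.7, 136 ± 28.0 and 183 ± 40.2 CPM (R-UUO), and for miR-455-5p they were 123 ± 10.9, 81.2 ± 20.6, 33.3 ± 6.95 and 61.1 ± 26.6 CPM. miR-335-5p was the exception, with 4.50 ± 2.90 CPM in sham libraries, 19.1 ± 9.38 CPM on day 2 and 3.81 ± 0.86 CPM on day 7. It was higher at UUO-2 than in sham at an adjusted p of 0.0279 and differed by -0.21 on the log2 scale between UUO-7 and sham (adjusted p = 0.823). In all, 6 of the 14 passed the test at UUO-2 against sham, where 19.1% of all loci did, and 10 at UUO-7 against sham, where 43% did. Between R-UUO and UUO-7, where 1.52% of loci passed, 2 of the 14 did: miR-375-3p fell (log2 -1.02, adjusted p = 0.0329) and miR-190a-5p rose (log2 1.41, adjusted p = 0.035).

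Whether the change from UUO-2 to UUO-7 in PT cells differed from that in the other cell types was tested over 63 libraries as the PT change minus the mean change of ECs, Macs and PDGFR-β+ cells. Of 671 loci, 20 passed an FDR of 0.05, which is 2.98%, and 4 of the 14 DEmiRNAs were among them. The median difference over all loci was -0.15, and the values below can be read against it. By library size alone the median moved to -0.42 and 23 loci passed, with 12 of the 20 among them, and of the 4 DEmiRNAs let-7i-5p and miR-29c-3p no longer passed (adjusted p = 0.262 and 0.257). The cell types came from the same mice, and with mouse as a block 30 loci passed, 19 of the 20 among them. All 4 DEmiRNAs were kept, and miR-190a-5p, miR-25-3p and miR-3068-3p passed as well (adjusted p = 0.0319, 0.027 and 0.0285).

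Among the 330 loci of the PT comparison the smallest adjusted p belonged to miR-181b-5p, which has the seed of miR-181d-5p, was not a DEmiRNA and differed in the opposite direction. At its chr2 locus the difference was -1.21 ± 0.19 (adjusted p = 4.55e-05), from a log2 change of -0.20 in PT cells against 0.84, 1.00 and 1.20 in ECs, Macs and PDGFR-β+ cells, and its chr1 locus has the same mature sequence. Among the 4 DEmiRNAs the smallest adjusted p was that of miR-181d-5p. Its log2 change was 1.66 ± 0.21 in PT cells against 0.37 ± 0.20 in ECs, 0.61 ± 0.20 in Macs and 0.71 ± 0.22 in PDGFR-β+ cells, a difference of 1.09 ± 0.24 (adjusted p = 0.00489). let-7i-5p changed by 1.07 ± 0.17 in PT cells and by 0.30 ± 0.16, -0.09 ± 0.16 and 0.84 ± 0.18 in the others, in the same order (difference 0.72 ± 0.19, adjusted p = 0.0177). Among the others, the value nearest to that of PT cells was that of PDGFR-β+ cells. miR-455-5p changed by -1.24 ± 0.27 in PT cells, -0.29 ± 0.31 in ECs, -1.15 ± 0.27 in Macs and 1.35 ± 0.28 in PDGFR-β+ cells (difference -1.21 ± 0.32, adjusted p = 0.0177). Its opposite signs in PT and PDGFR-β+ cells went with levels of 71.0 and 30.2 CPM in the former and of 25.3 and 64.6 CPM in the latter at the 2 times.

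miR-29c-3p had a difference above 0, its decrease in PT cells being smaller than the mean of the others but larger than that in ECs. Its log2 change was -0.88 ± 0.21 in PT cells, -0.63 ± 0.21 in ECs, -1.92 ± 0.21 in Macs and -2.63 ± 0.25 in PDGFR-β+ cells, a difference of 0.84 ± 0.24 (adjusted p = 0.0379). For miR-375-3p no difference was shown (1.02 ± 0.48, adjusted p = 0.256): its log2 change was 2.80 ± 0.43 in PT cells and 2.04 ± 0.42, 2.06 ± 0.42 and 1.25 ± 0.44 in ECs, Macs and PDGFR-β+ cells, at levels of 67.7 and 279 CPM in ECs against 197 and 1371 CPM in PT cells. miR-146b-5p changed by 2.45 ± 0.20 in PDGFR-β+ cells and 1.49 ± 0.19 in Macs against 1.28 ± 0.19 in PT cells (difference -0.37 ± 0.22, adjusted p = 0.417). miR-190a-5p, at 50.5 and 18.2 CPM in PT cells and at most 15.1 CPM on average in any other cell type at these times, changed by -1.48 ± 0.39 in PT cells against values from -0.34 to 0.78 elsewhere, but the difference of -1.53 ± 0.46 did not pass (adjusted p = 0.0521) without the mouse block, and passed by library size alone (adjusted p = 0.0188). With all libraries thinned to the smallest total, 6 of 426 loci passed, and none of these 4 DEmiRNAs did. Without UUO-7 replicate 4, 9 of 670 loci passed, and of the 4 only miR-181d-5p was still called. Without UUO-2 replicate 2, 13 passed, and without UUO-2 replicate 4, 11.

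**Figure D5:**
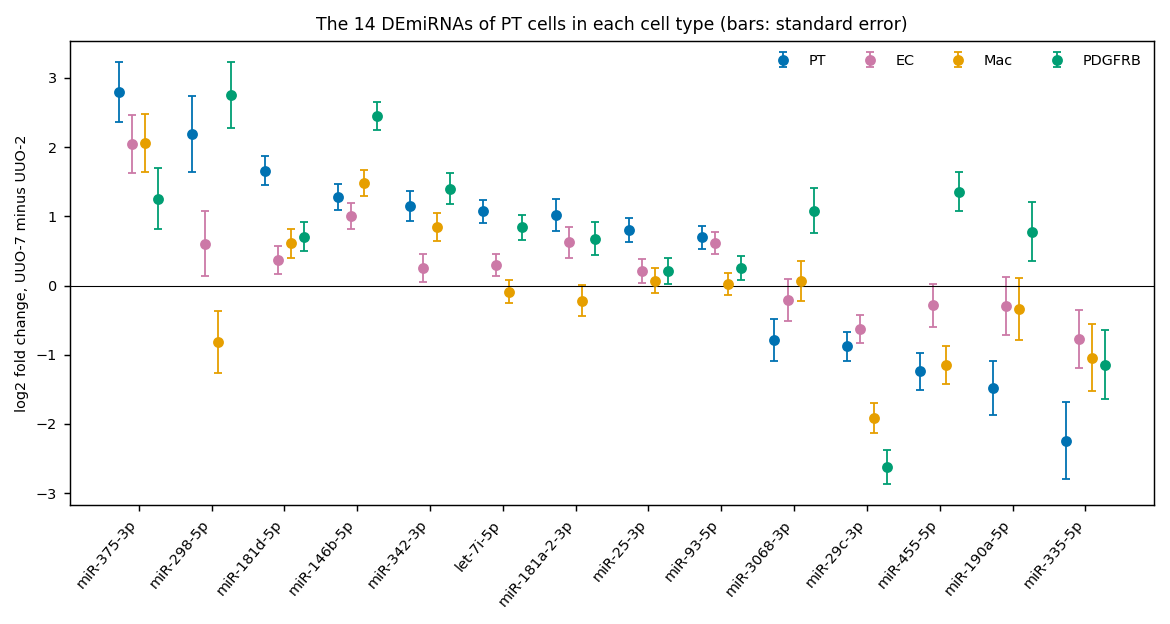
Log2 fold change (UUO-7 minus UUO-2) of the 14 DEmiRNAs of PT cells in PT cells, ECs, Macs and PDGFR-β+ cells, from the fit over 63 libraries with bars for the standard error. miR-455-5p lies at -1.24 for PT cells but at 1.35 for PDGFR-β+ cells, and miR-375-3p lies above 0 in all 4 cell types.

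Markers of the other cell types were read in the same 8 libraries. The 2 EC markers summed to 959 to 2310 CPM at UUO-2 and 716 to 1037 CPM at UUO-7. miR-126a-5p, most of this sum, overlapped between the times, at 772 to 1892 CPM and then at 610 to 890 CPM. miR-126a-3p did not overlap, at 155 to 418 CPM and then at 106 to 147 CPM (log2 -0.91 ± 0.39, adjusted p = 0.178). The 4 erythroid markers summed to 84.5 to 119 CPM and 97.4 to 156 CPM. Nearly all of the erythroid sum was miR-486a-5p, at 82.6 to 117 CPM and then at 96.6 to 155 CPM. miR-451a was at most 2.96 CPM, and miR-144-3p was at 0 in 7 of the 8 libraries. The 6 PDGFR-β+ markers summed to 7768 to 11620 CPM and 7530 to 20400 CPM, nearly all of it miR-143-3p, and the highest value was that of UUO-7 replicate 4. The other UUO-7 libraries reached at most 9185 CPM. Scarcer members hardly enter this sum. Of these, miR-199a-3p on chr1 was at 74.5 to 145 CPM and then at 106 to 232 CPM. miR-214-3p was at 1.82 to 5.91 CPM and then at 5.54 to 8.21 CPM, and miR-145a-5p at 55.1 to 152 CPM and then at 57.5 to 122 CPM, all with overlap. None of the tested markers of these lists was called, and their part in the changes of the DEmiRNAs was not tested.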

How the data were processed

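Paired-end small RNA reads were trimmed by the authors with Trim Galore 0.4.1 and cutadapt 1.1. ShortStack, which runs Bowtie, placed them on GRCm38, and the deposited table holds 1 raw count, not normalized, for each locus of a mature miRNA of miRBase. How reads that match several loci were placed, and whether strand was used, is not given in the sources used here. Groups came from the labels. The same replicate number in another condition is another mouse, and p-values of comparisons within PT cells measure the spread between mice. The fit over 63 libraries treats the cell types of 1 mouse as separate samples, except where mouse is a block.

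From the counts, R 4.3.3 with edgeR 4.0.16 filtered loci (filterByExpr), scaled libraries (TMM) and tested 330 loci over the 16 PT libraries with the quasi-likelihood test and Benjamini-Hochberg adjustment. Calls needed an FDR under 0.05 and a fold change over 1.5. CPM use TMM effective library sizes. Changes were compared between cell types in 1 fit over all 63 libraries. Shares were compared by a 2-sided exact permutation test over 70 splits. DESeq2 1.42.0 and other scalings, filters and left-out libraries served as alternatives. Levels of 3 counts cover counting error only. The scripts were tested on simulated counts.

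Libraries of 1 condition differed by more than sampling noise (chi-square per degree of freedom of at least 13.4). The loci named were all DEmiRNAs, the 6 most abundant loci, the 2 most abundant of each group, and the 4 uncalled loci with the largest changes among those without overlap. Other arms, neighbours and further group members were named after their values were seen. The comparison, groups and markers were chosen with earlier results of these data known. Hairpins and host genes were taken from GENCODE on GRCm38 for 2056 of the 2110 loci, and 1734 had a RefSeq mature sequence at the same position.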

Additional observations from a re-analysis of the deposited data

Results flagged for a closer look

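In 7 of the 98 groups of 4 libraries checked over the 49 named loci, 1 library lay far from the other 3 by Dixon's criterion, and chance alone flags about 1 in 20 groups. UUO-7 replicate 4 was such a library for miR-21a-5p (36100 CPM against 19280 to 21700 CPM in the others), miR-143-3p (20080 CPM against 7313 to 8939 CPM) and miR-653-5p (170.6 CPM against 83.5 to 97.4 CPM). UUO-2 replicate 1 was one for the EC markers miR-126a-5p (1892 CPM against 772 to 803 CPM) and miR-126a-3p (417.9 CPM against 155 to 191 CPM). UUO-2 replicate 3 had 989.4 CPM of the DEmiRNA miR-25-3p against 728 to 744 CPM in the others, and still lay below the lowest UUO-7 library at 1163 CPM. UUO-2 replicate 4 had 14.91 CPM of miR-342-5p against 5.45 to 6.36 CPM.

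The change from UUO-2 to UUO-7 in PT cells differed from the mean change of ECs, Macs and PDGFR-β+ cells for 6 named loci. The difference was 1.09 for miR-181d-5p, 0.72 for let-7i-5p, -1.21 for miR-455-5p and 0.84 for miR-29c-3p on the log2 scale. It was also flagged for 2 loci that were not DEmiRNAs. For miR-34c-5p the log2 change was 1.55 ± 0.39 in PT cells and -0.69 ± 0.34, 0.55 ± 0.34 and -0.11 ± 0.35 in ECs, Macs and PDGFR-β+ cells, a difference of 1.64 ± 0.44 (adjusted p = 0.0177). For miR-181c-3p it was 2.24 ± 0.41 in PT cells and 0.58 ± 0.34, -0.16 ± 0.37 and 1.69 ± 0.36 in the others, a difference of 1.53 ± 0.46 (adjusted p = 0.0478). Both calls were lost by library size alone, with thinned libraries and without UUO-2 replicates 2, 3 or 4 or UUO-7 replicate 4.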

How the results depend on the processing

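Against 9 higher and 5 lower DEmiRNAs, edgeR's likelihood ratio test gave 19 and 7, DESeq2 21 and 7 (with 4 loci given no adjusted p), library size alone 6 and 2, DESeq2's size factors in edgeR 9 and 5, no low-count filter 29 and 7 of 1231 loci, the 8 UUO-2 and UUO-7 libraries alone 29 and 11, thinning to the smallest total 7 and 3, and summed loci of 1 mature name 13 and 5. Without R-UUO replicate 1, an alternative chosen after seeing the data, the counts were 26 and 20. Leaving out 1 library at a time gave 3 to 13 higher (3 without UUO-2 replicate 4) and 3 to 6 lower (3 without UUO-7 replicate 5). The replicate number as a block gave 14 higher and 3 lower. Deviations of libraries with the same number had correlations of 0.21, 0.28 and -0.17, within the range of -0.40 to 0.30 for pairs with different numbers. So few pairs cannot decide whether libraries with the same number share anything. The 14 DEmiRNAs were kept by the likelihood ratio test, DESeq2, DESeq2's size factors, the 8 libraries alone, summed names and the fits without R-UUO replicate 1 or UUO-7 replicate 3, 12 by the block (not miR-3068-3p and miR-335-5p), 12 without the filter (not miR-3068-3p and miR-93-5p) and 9 by thinning. No sign was reversed for any DEmiRNA. Of 20 loci whose change differed from the other cell types, thinning left 6, library size alone gave 23, mouse as a block 30, and leaving out 1 library 9 (UUO-7 replicate 4) to 25, with 13 and 11 without UUO-2 replicates 2 and 4. The difference of 1.95 percentage points in the share of the 10 most abundant loci ranged from 0.604 to 3.71 over other numbers of loci and summed names and from 0.771 to 3.04 with 1 library left out, with no exact permutation p under 0.0857. The cause of these shifts was not tested. Thinning to the smallest total cost miR-298-5p, miR-190a-5p, miR-342-3p, miR-181a-2-3p and miR-3068-3p their calls.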

Other observations

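The 3p arms of the let-7 and miR-98 hairpins, a group formed after the values were seen and so not tested, lay on the other side of 0 from the 5p arms. All 8 tested 3p loci had a log2 value below 0, with a median of -0.46 and a range of -0.85 to -0.06, while 11 of the 12 5p loci lay above 0 with a median of 0.22. Over all loci the medians were -0.06 for the 155 3p and 0.06 for the 156 5p loci. None of the 3p loci was called on its own: let-7a-1-3p went from 28.3 to 15.5 CPM on average (log2 -0.85 ± 0.33, adjusted p = 0.139) and let-7b-3p from 109 to 84.3 CPM (log2 -0.37 ± 0.17, adjusted p = 0.215), both without overlap between the times. The most abundant, let-7d-3p, was at 1374 and 1191 CPM and overlapped. By library size alone all 8 stayed below 0, with a median of -0.65, against 9 of 12 above 0 for the 5p arms. Without UUO-7 replicate 4, 8 of 9 were below 0.

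miR-9-5p, best known from neurons, has 3 loci that share their counts with miR-9b-3p and encode the same mature sequence. Their log2 values were 1.64 ± 0.48, 1.23 ± 0.41 and 1.22 ± 0.44 (adjusted p = 0.0577, 0.0891 and 0.114), each without overlap between the times. miR-193a-3p had a log2 value of -1.23 ± 0.37 with overlap (adjusted p = 0.0637). Both miRNAs were chosen after their values were seen, and neither was called. miR-184-3p was at 3.94 to 10.9 CPM at UUO-2 and 14.8 to 19.6 CPM at UUO-7 in PT cells (log2 1.37 ± 0.79, adjusted p = 0.326). In ECs its mean was 0.991 ± 0.541 CPM and then 153 ± 300.2 CPM on the scale of all libraries, with an SD larger than the mean, and the difference of the change between PT and the other cell types of -2.59 ± 1.18 did not pass (adjusted p = 0.242).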
